A study of Mus musculus with 12 samples.

Results

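The 10 genes examined here act in sugar and lactate transport and were followed in mouse embryonic fibroblasts (MEF), 8 members of the Slc2a family of facilitated hexose carriers and 2 of the Slc16a family of monocarboxylate carriers. They were chosen by name, and all 10 were among the 20443 gene names listed in both expression tables. The MEF came from C57BL/6 embryos at embryonic day 13.5 and had immortalized spontaneously in culture. In the first experiment, 2MUT cells stably carried mutant human IDH2 from a retroviral vector after puromycin selection, and Control cells carried the mock vector. In the second, 2-HG(+) cells received 300 μM 2-hydroxyglutarate (2-HG) for 24 h in a membrane-permeant form, listed in the paper as octyl-(R)-2HG. The 2-HG(-) cells received none, their label naming DMSO over the same 24 h. Each group had 3 libraries, 12 in all, and no RNA-seq group carried wild-type IDH2. The experiments are described as done in triplicate, without saying whether the libraries of a group came from separate cultures, so p-values measure the spread between these libraries, which may be technical.

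Carriers of the Slc2a family let hexoses cross membranes down their gradient. Slc2a1 (GLUT1) is the widespread basal glucose carrier of growing cells, Slc2a3 (GLUT3) is typical of neurons, and Slc2a4 (GLUT4) is the insulin-responsive carrier of muscle and fat. The Slc16a carriers Slc16a1 (MCT1) and Slc16a3 (MCT4) move lactate and pyruvate together with a proton, and both need the chaperone basigin (Bsg) to reach the cell surface.

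Values are RPM, the reads on a gene per 1000000 reads assigned to genes. Libraries held between 6472439 and 7313602 reads in the 2MUT experiment and between 14959318 and 18363768 in the 2-HG experiment, so that 3 reads, taken as the detection limit, were worth 0.41 to 0.464 RPM and 0.163 to 0.201 RPM. These limits cover counting error only. Of 9 fibroblast markers, 8 were above 3 reads in every library, and S100a4 was at 0.142 RPM in Control and 0.144 RPM in 2MUT. Their summed level was 14410 to 16380 RPM in Control, 13010 to 13460 RPM in 2MUT, 21600 to 23250 RPM in 2-HG(-) and 15240 to 16260 RPM in 2-HG(+). The sum was lower in each treated group. Apart from S100a4, only Pdgfra (372 RPM in Control against 458 RPM in 2MUT) and Fn1 (3967 against 5329 RPM) averaged higher in 2MUT. The other markers averaged lower there, among them Vim (3110 against 1265 RPM), Col3a1 (144 against 27.95 RPM) and Thy1 (80.4 against 24.2 RPM). With 2-HG, only Thy1 averaged higher (2.76 RPM in 2-HG(-) against 5.23 RPM in 2-HG(+)), while Pdgfrb averaged 307 against 106 RPM. The part of these marker changes in the results was not tested. Fewer cells of a type and less RNA per cell cannot be told apart in such bulk samples. The mouse Idh2 target read 70.9, 80.8 and 80.1 RPM in Control and 42.6, 51.1 and 55.2 RPM in 2MUT. It was lower in every 2MUT library (log2 change -0.63, adjusted p = 0.00298, limma) and higher with 2-HG (0.43, adjusted p = 0.0109, limma). Idh1 was higher in 2MUT (0.64, adjusted p = 0.00475, limma) and lower with 2-HG (-0.33, adjusted p = 0.0386, limma). Reads of the human transgene were not analysed here.

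Of the 10 carriers, 4 were expressed above the filter of a mean of 1 RPM over the 6 libraries of an experiment, and they were the same 4 in both: Slc2a1, Slc2a6, Slc2a8 and Slc16a1. In 2MUT, 2 of the 4 tested carriers were higher than in Control and 2 were lower by limma's test, beside 16.5% of 11065 genes higher and 17.3% lower. With 2-HG, 2 were higher and 0 lower, beside 16.1% of 10384 genes higher and 16.7% lower. The median log2 change of the 4 was 0.10 in 2MUT and 0.32 with 2-HG, where that of all tested genes was 0.0081 and -0.021. With 4 tested members these counts describe the carriers and say nothing of the family as a whole. The study picked Slc2a1 from these libraries, so its rise is not independent evidence.

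The upstream bases of the 4 expressed carriers are shown because 2 of them rose in both experiments and the other two fell in 2MUT. The sequences are those of RefSeq on GRCm38.p6, where 8 of the 10 members had an entry, and they run 5′ to 3′ on the gene's strand up to the start site, apart from that of Slc2a1, which stops at position -32. Capitals mark ACGTG or GCGTG on either strand, the core letters of the hypoxia response element, so that CACGT and CACGC are also in capitals. The Slc2a1 bases lie at chr4:119108495-119108713 (+), those of Slc16a1 at chr3:104638414-104638663 (+), those of Slc2a6 at chr2:27027999-27028248 (-) and those of Slc2a8 at chr2:32982084-32982333 (-).
Slc2a1: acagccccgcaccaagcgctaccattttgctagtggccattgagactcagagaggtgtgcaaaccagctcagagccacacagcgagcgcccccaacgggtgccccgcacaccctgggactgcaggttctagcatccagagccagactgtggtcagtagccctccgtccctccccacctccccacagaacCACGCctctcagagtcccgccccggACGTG
Slc16a1: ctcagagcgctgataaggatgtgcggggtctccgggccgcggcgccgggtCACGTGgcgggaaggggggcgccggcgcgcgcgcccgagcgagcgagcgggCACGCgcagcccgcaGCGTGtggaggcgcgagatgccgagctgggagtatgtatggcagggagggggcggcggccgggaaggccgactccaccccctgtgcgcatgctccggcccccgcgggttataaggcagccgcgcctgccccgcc
Slc2a6: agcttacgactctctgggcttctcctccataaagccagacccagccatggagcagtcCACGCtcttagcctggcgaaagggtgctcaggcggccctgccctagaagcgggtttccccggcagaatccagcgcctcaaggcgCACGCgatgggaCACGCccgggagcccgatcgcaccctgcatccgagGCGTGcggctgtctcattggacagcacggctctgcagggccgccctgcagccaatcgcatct
Slc2a8: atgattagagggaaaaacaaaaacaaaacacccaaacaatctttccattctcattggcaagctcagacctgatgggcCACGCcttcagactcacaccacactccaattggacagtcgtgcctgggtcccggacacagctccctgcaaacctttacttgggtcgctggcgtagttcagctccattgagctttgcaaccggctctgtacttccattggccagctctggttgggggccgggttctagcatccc

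ACGTG stood at position -36 from the RefSeq start site of Slc2a1, and GCGTG at -61. The last 3 Slc2a1 bases shown lie at or past the GENCODE M21 gene start, which this ACGTG spans. In Slc16a1 a CACGTG, which holds ACGTG on both strands, stood at -200, and GCGTG at -149 and -134. Slc2a6 held GCGTG at 4 positions and no ACGTG, and Slc2a8 held GCGTG once, at -173. All 4 windows thus held one of the motifs, as did 38.6% of 32851 RefSeq windows of the same length, where ACGTG alone was in 16.6% and CACGTG in 6.02%. Among the other members with an entry, Slc16a3, at most 0.427 RPM in a library, held ACGTG at -27 and -14. Slc2a9, Slc2a10 and Slc2a12 held neither motif. CCAAT, searched on both strands, stood at 4 positions of the Slc2a8 window and at 2 positions of the Slc2a6 window. It was in 33.8% of all windows. At 4 or more positions, a cut set at the count seen in Slc2a8, it was in 0.84%. The Slc2a8 matches at -148 and -145 overlap, on opposite strands. GGGCGG, also searched, was in the Slc2a1, Slc16a1 and Slc2a6 windows and in 32.7% of all windows. These matches describe letters and not sites.

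Slc2a1 (chr4:119108711-119137983, + strand, GENCODE M21 on GRCm38) was at 228, 262 and 290 RPM in the Control libraries and at 649, 779 and 761 RPM in 2MUT. It was at 78.6, 61.2 and 68.4 RPM in 2-HG(-) and at 137, 106 and 127 RPM in 2-HG(+). Every treated library lay above every library of its control group. The log2 change was 1.49 (SE 0.11, 95% interval 1.24 to 1.73, adjusted p = 4.37e-06, limma) in 2MUT and 0.82 (SE 0.13, 95% interval 0.53 to 1.11, adjusted p = 0.00121, limma) with 2-HG. The antisense genes Gm12867 and Gm12868 and, on the same strand, Mir1957a overlap Slc2a1, and since the positions of the amplified targets were not used here, their share of these reads is not known.

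Slc16a1 (chr3:104638668-104658462, + strand), the carrier of lactate and pyruvate, was at 40.4, 40.3 and 48.0 RPM in Control and at 71.2, 72.3 and 78.4 RPM in 2MUT. It was at 93.6, 77.7 and 86.2 RPM in 2-HG(-) and at 118, 161 and 154 RPM in 2-HG(+). The groups did not overlap in either experiment. Its log2 change was 0.78 (SE 0.12, 95% interval 0.51 to 1.04, adjusted p = 0.000589, limma) in 2MUT and 0.73 (SE 0.13, 95% interval 0.43 to 1.04, adjusted p = 0.00271, limma) with 2-HG, a 1.72-fold and a 1.68-fold ratio of the group means. Gm43581 and Gm43585 overlap Slc16a1 on the same strand, and their share of its reads is likewise not known.

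**Figure D1:**
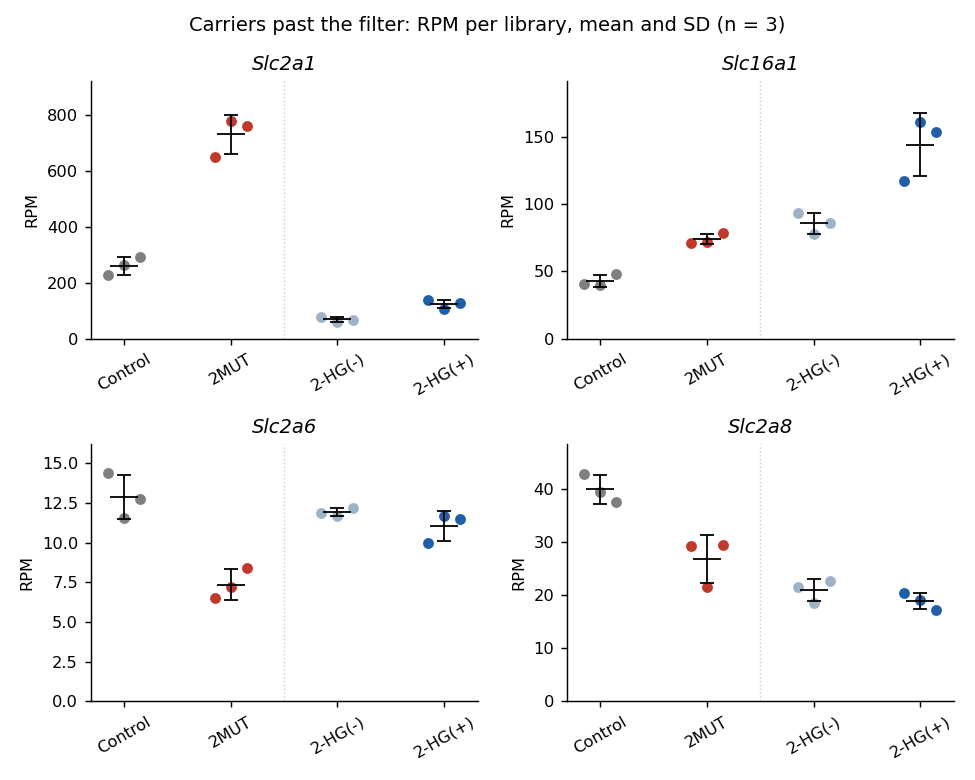
RPM of the 4 expressed carriers in each library, with the mean and SD of each group of 3. Slc2a1 and Slc16a1 lie higher in 2MUT and 2-HG(+) than in their control groups, and Slc2a6 and Slc2a8 lie lower in 2MUT than in Control.

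The other two expressed carriers were lower in 2MUT. Slc2a6 (GLUT6, chr2:27021363-27027998, - strand), a carrier held in lysosomal membranes, was at 14.4, 11.5 and 12.7 RPM in Control and at 6.49, 7.17 and 8.39 RPM in 2MUT, from 271 and 152 reads in all. Its groups did not overlap, and it fell by 0.73 on the log2 scale (SE 0.18, adjusted p = 0.00892, limma). With 2-HG it was at 11.9, 11.7 and 12.2 RPM in 2-HG(-) and at 9.98, 11.7 and 11.5 RPM in 2-HG(+), the highest 2-HG(+) library lying just under the lowest 2-HG(-) library. The log2 change was -0.10 (95% interval -0.38 to 0.18, adjusted p = 0.56, limma).

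Slc2a8 (GLUT8, chr2:32972990-32982083, - strand), also an intracellular hexose carrier, was at 42.9, 39.5 and 37.6 RPM in Control and at 29.4, 21.7 and 29.6 RPM in 2MUT. The groups did not overlap, and it fell by 0.57 on the log2 scale (SE 0.15, adjusted p = 0.0136, limma). Without 2MUT replicate 2, the lowest library, the change was -0.43 and the call was lost (adjusted p = 0.0617, limma). With 2-HG the libraries overlapped, at 21.6, 18.7 and 22.6 RPM against 20.4, 19.1 and 17.3 RPM, a log2 change of -0.14 (95% interval -0.43 to 0.15, adjusted p = 0.432, limma).

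The changes of the 2 experiments were compared directly over the 12 libraries, as the log2 change in 2MUT minus that with 2-HG, with its sign. This difference was above 0 and called for 19.9% of 9594 genes, and below 0 and called for 19.5%. Among the 4 carriers, 1 was called above 0, 1 below 0 and 2 did not pass. The change of Slc2a1 in 2MUT exceeded that with 2-HG by 0.67 log2 units (SE 0.18, 95% interval 0.27 to 1.06, adjusted p = 0.0107, limma). For Slc2a6, which fell further in 2MUT, the signed difference was -0.63 (95% interval -1.05 to -0.21, adjusted p = 0.0207, limma), and the call was lost without 2-HG(+) replicate 2 (-0.59, adjusted p = 0.0541, limma). For Slc2a8 the difference was -0.43 (95% interval -0.85 to -0.0032, adjusted p = 0.102, limma). For Slc16a1 it was 0.041, with a 95% interval of -0.35 to 0.43, so a difference of up to that size in either direction was within the error. The experiments also differ in duration, vector, selection and table, and these cannot be told apart from the agent.

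**Figure D2:**
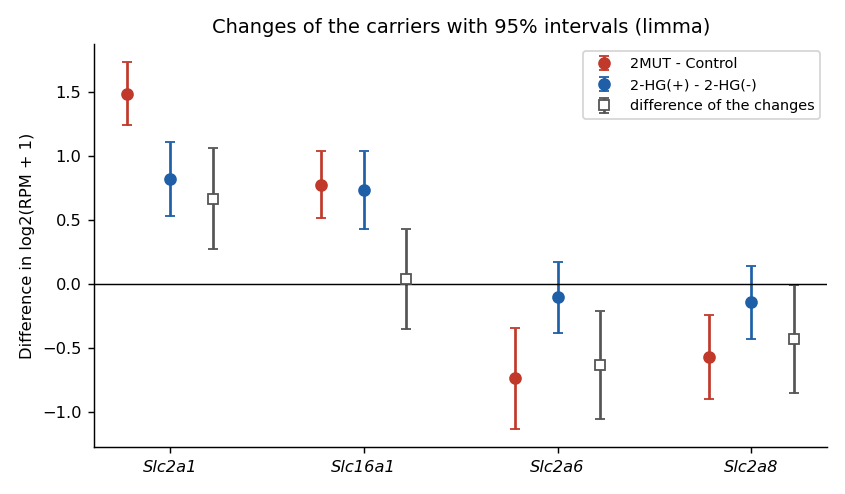
Difference in log2(RPM + 1) for each tested carrier with its 95% interval, for 2MUT against Control (red), 2-HG(+) against 2-HG(-) (blue) and the former minus the latter (open squares). Slc2a1 lies at 1.49 and 0.82 and Slc16a1 at 0.78 and 0.73, while Slc2a6 and Slc2a8 lie below 0 in 2MUT, with intervals that include 0 for 2-HG.

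The other 6 carriers lay under the filter of 1 RPM and were given no test. Slc2a9 (GLUT9, chr5:38349273-38503143, - strand), a urate carrier, was at 0, 0.57 and 1.78 RPM in Control and at 0.618, 1.17 and 1.1 RPM in 2MUT, above 3 reads in 5 of 6 libraries. In the deeper 2-HG experiment it was at 0.708, 0.869 and 1.02 RPM in 2-HG(-) and at 0.661, 0.782 and 0.719 RPM in 2-HG(+). It was therefore detected at a low level in both, with groups that overlapped.

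Slc2a3 (GLUT3, chr6:122727809-122801640, - strand) was at 0.74, 0.285 and 0.41 RPM in Control and at 0.309, 0 and 0 RPM in 2MUT, which amounts to 10 and 2 reads. With 2-HG it was above 3 reads in every library, at 0.381, 0.468 and 0.54 RPM in 2-HG(-) and at 0.529, 0.601 and 0.719 RPM in 2-HG(+). The pseudogene Gm4482 lies within its locus.

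The remaining 4 had no group above 6 reads in all. Slc2a4, the insulin-responsive carrier (chr11:69942539-69948188, - strand), had 1 read in the 2MUT experiment, and 5 and 3 reads in 2-HG(-) and 2-HG(+). Slc2a12 (GLUT12, chr10:22645011-22704285, + strand) was listed at 0 in all 6 libraries of the 2MUT experiment. Slc2a10 (GLUT10, chr2:165503787-165519917, + strand) reached at most 0.196 RPM, and Slc16a3, the lactate exporter of glycolytic cells (chr11:120948480-120960868, + strand), at most 0.427 RPM. For these genes no difference was detectable at this depth. Whether so few reads meant little expression or a target that read poorly was not tested. The 2MUT experiment listed 43278 gene names and the 2-HG experiment 23928. The adipocyte and striated muscle markers, of cells that use Slc2a4, summed to at most 1.39 and 2.94 RPM in a library.

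**Figure D3:**
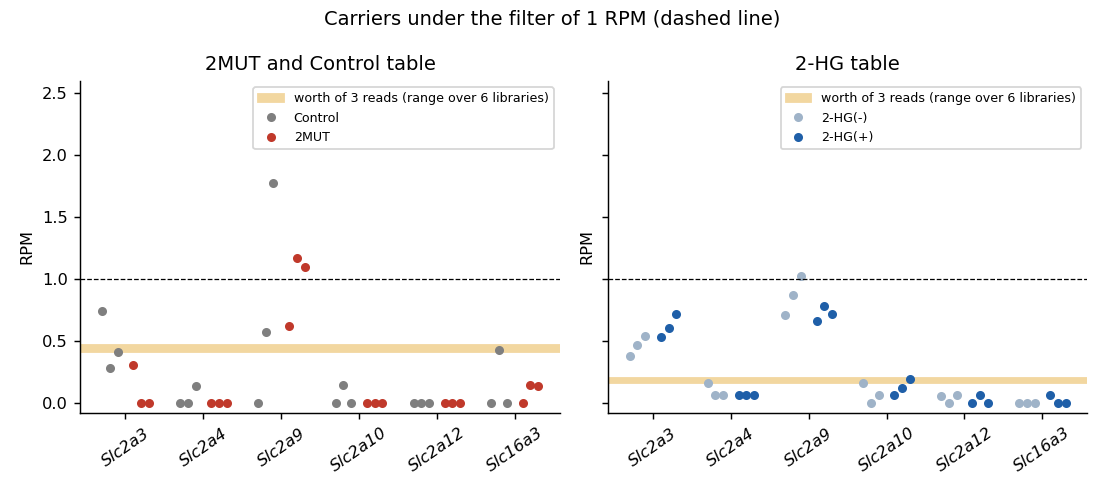
RPM of the 6 carriers under the filter in each library, with the filter of 1 RPM dashed and the worth of 3 reads as a band. Slc2a3 and Slc2a9 lie above the band in all 6 libraries of the 2-HG table, and the other 4 lie near or below it in both tables.

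For correlations across the 12 libraries, each gene was centred on its own mean within each table. Slc2a1 and Slc16a1 varied together (Pearson r = 0.899, rank 53 of 6722 genes averaging 10 RPM or more in each table). Slc2a8 (r = -0.814) and Slc2a6 (r = -0.862) varied inversely to Slc2a1. The 5 genes most like Slc2a1 were Faxc, Ier3, G3bp1, Uqcc2 and P4ha2, with r from 0.96 to 0.969. Their log2 changes were 0.70 to 1.33 in 2MUT and 0.28 to 1.12 with 2-HG. These correlations hold the groups within them and are a description, since the libraries share treatment.

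A further 47 genes of sugar and monocarboxylate transport and of the steps next to it, in 5 lists, were set beside the carriers. In 2MUT 23 were tested, of which 5 were higher and 0 lower, beside 16.5% and 17.3% of all genes. With 2-HG 24 were tested, of which 4 were higher and 8 lower, beside 16.1% and 16.7% of all genes. Their median log2 changes were 0.108 and -0.135, where those of all genes were 0.0081 and -0.021. Of the tested genes, 1 in 2MUT and 2 with 2-HG passed the filter only through the group where they were high (Slc5a1, and Slc16a6 and Slc16a4). Without them, a count chosen after seeing the data, 4 of 22 were higher and 0 lower in 2MUT, and 3 of 22 were higher and 7 lower with 2-HG.

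Of 4 other Slc2a carriers, 1 was tested, Slc2a13, the proton and myo-inositol cotransporter. It was at 2.81, 2.99 and 1.64 RPM in Control and at 7.26, 8.64 and 5.5 RPM in 2MUT, a rise of 1.23 log2 units (adjusted p = 0.00275, limma). With 2-HG its groups overlapped and the change was -0.68 (adjusted p = 0.0564, limma). Of 10 sodium-coupled carriers, 1 was tested in 2MUT, Slc5a1 (SGLT1), which rose from 7 to 45 reads in all (log2 change 1.31, adjusted p = 0.00562, limma). It averaged 0.331 RPM in Control against 2.18 RPM in 2MUT, so it passed the filter only through the group where it was high, and its change was 3.00 with 0.1 RPM added before the logarithm, 2.66 with edgeR and 2.73 with DESeq2.

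Of 11 other Slc16a carriers, none of the 3 tested passed in 2MUT, beside 16.5% of all genes higher and 17.3% lower. With 2-HG, 1 of 5 was higher and 2 were lower, beside 16.1% and 16.7% of all genes. Slc16a6, a carrier of ketone bodies, was at 0.381, 0.401 and 0.36 RPM in 2-HG(-) and at 4.89, 4.45 and 4.05 RPM in 2-HG(+), a log2 change of 1.98 (adjusted p = 1.19e-05, limma). The change was 3.24 with 0.1 RPM added, 3.54 with edgeR and 3.58 with DESeq2. Slc16a4 was at 2.18, 2.34 and 4.02 RPM in 2-HG(-) and at 0.463, 0.421 and 0.523 RPM in 2-HG(+), and fell by 1.36 log2 units (adjusted p = 0.000698, limma). The change was -2.32 with 0.1 RPM added, -2.57 with edgeR and -2.59 with DESeq2. Both genes passed the filter only through the group where they were high, since the other group averaged 0.381 and 0.469 RPM. Slc16a9 fell by 0.70 on the same scale, a call lost without 2-HG(-) replicate 1 (adjusted p = 0.0675, limma), without 2-HG(-) replicate 3 (adjusted p = 0.0634, limma) or without 2-HG(+) replicate 2 (adjusted p = 0.0732, limma).

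Bsg, the chaperone of Slc16a1, did not pass in 2MUT (log2 change 0.19, adjusted p = 0.149, limma) or with 2-HG (-0.33, adjusted p = 0.0639, limma). Embigin (Emb), a related chaperone, was at 810, 723 and 671 RPM in 2-HG(-) and at 237, 249 and 260 RPM in 2-HG(+), a log2 change of -1.56 (adjusted p = 6.47e-06, limma). In 2MUT its log2 change was 0.022 (95% interval -0.19 to 0.23). Txnip, an arrestin that draws Slc2a1 off the cell surface, was at 235, 203 and 156 RPM in 2-HG(-) and at 59.3, 86.8 and 98.0 RPM in 2-HG(+), a log2 change of -1.28 (adjusted p = 0.00105, limma). In 2MUT its change was -0.21 (adjusted p = 0.168, limma). Its relative Arrdc4 and the vesicle aminopeptidase Lnpep also fell with 2-HG, by 0.79 and 0.76, the Arrdc4 call being lost in the unmoderated test (adjusted p = 0.0623). Of the 12 partners and trafficking factors 11 were tested, of which 0 were higher and 4 lower with 2-HG, beside 16.1% and 16.7% of all genes, and 1 higher and 0 lower in 2MUT, beside 16.5% and 17.3%. The 1 called in 2MUT was Aspscr1, which tethers vesicles of Slc2a4 (0.40, adjusted p = 0.0383, limma), and the call was lost without any one of 5 of the 6 libraries, Control replicate 2 being the exception.

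Of 10 enzymes and carriers next to transport, 7 were tested, of which 2 were higher and 0 lower in 2MUT, beside 16.5% and 17.3% of all genes, and 3 higher and 2 lower with 2-HG, beside 16.1% and 16.7%. Hk1, a hexokinase, rose by 0.70 in 2MUT (adjusted p = 0.00603, limma), a call lost in the unmoderated test (adjusted p = 0.0742), and was at -0.10 with 2-HG (adjusted p = 0.674, limma). Hk2, the inducible hexokinase, rose by 1.08 with 2-HG (adjusted p = 0.00123, limma) and was at 0.29 in 2MUT (adjusted p = 0.069, limma). Ldha, the lactate dehydrogenase subunit that favours lactate, rose with 2-HG by 0.58 (adjusted p = 0.00763, limma, and 0.0606 with no filter), while Ldhb, which favours pyruvate, fell by 0.99 (adjusted p = 0.000172, limma). In 2MUT Ldhb rose by 0.52 (adjusted p = 0.000769, limma) and Ldha changed by -0.11 (adjusted p = 0.362, limma). G6pc3 rose by 0.56 and Khk fell by 0.58 with 2-HG. The G6pc3 change was 0.35 without 2-HG(-) replicate 2, and its call was lost without 2-HG(+) replicate 2 (adjusted p = 0.0795, limma). The Khk call was lost without any one of 5 of the 6 libraries, 2-HG(+) replicate 2 being the exception.

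**Figure D4:**
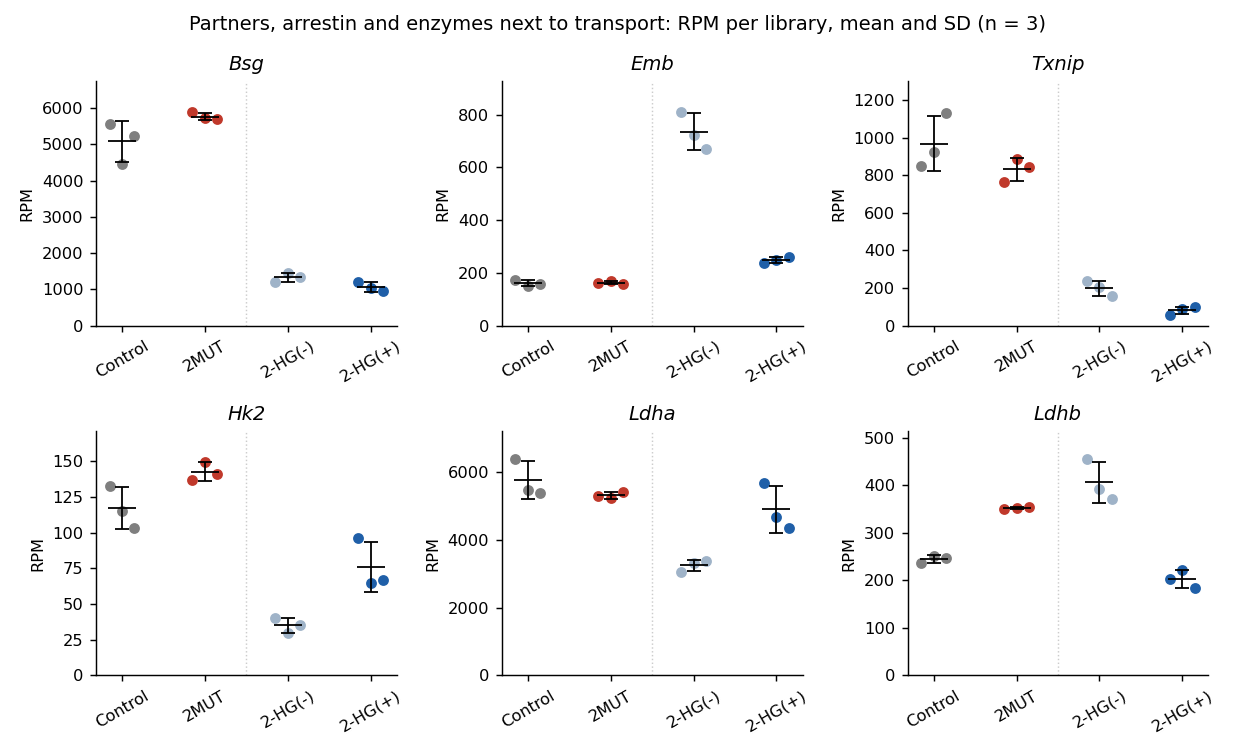
RPM of Bsg, Emb, Txnip, Hk2, Ldha and Ldhb in each library, with the mean and SD of each group of 3. Emb and Txnip lie lower in 2-HG(+) than in 2-HG(-), and Ldhb lies higher in 2MUT than in Control but lower in 2-HG(+) than in 2-HG(-).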

How the data were processed

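Ion AmpliSeq libraries amplify a short stretch per transcript and were sequenced on an Ion Proton. Reads were mapped with TMAP and counted by the AmpliSeqRNA plug-in, and the authors deposited RPM per gene in 1 table for each experiment. The reference was the AmpliSeq mouse transcriptome, and its genome build was not given in the sources used here. Divided by what 1 read is worth, 100% of values gave whole reads (tolerance 0.0006 RPM). Because targets differ, levels were compared within a gene and within a table.

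RPM were tested as log2(RPM + 1) with limma 3.58.1 in R 4.3.3, allowing a mean-variance trend, within each experiment (6 libraries), for genes averaging 1 RPM or more, so that changes of low genes are understated. Benjamini-Hochberg adjusted p-values under 0.05, over all genes tested, were called. The difference between experiments was a contrast over 12 libraries. edgeR 4.0.16 and DESeq2 1.42.0 on recovered reads, other scalings, filters and added values, the replicate block and each library left out were alternatives. Tests were checked on simulated data. The members and the lists were chosen with earlier results of these data known. Named genes are the 10 members, the 5 genes most like Slc2a1, genes of the lists, the markers, Idh1 and Idh2, and genes that overlap a member. Of the lists, 1 item is not reported here and was left out of the counts. Mouse coordinates come from GENCODE M21.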

Additional observations from a re-analysis of the deposited data

Results flagged for a closer look

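Genes are given here because their change in 2MUT against Control differed from that with 2-HG against 2-HG(-), by limma's test of the difference over 12 libraries (2MUT change minus 2-HG change, log2). The difference was 0.666 for Slc2a1 and -0.63 for Slc2a6. Among other carriers it was 1.91 for Slc2a13 (adjusted p = 0.000911) and -2.46 for Slc16a6 (adjusted p = 0.00061), which passed the filter in the 2-HG experiment only through 2-HG(+). Among partners and trafficking factors it was 1.58 for Emb (adjusted p = 8.86e-07), 1.07 for Txnip (adjusted p = 0.00459), 0.923 for Lnpep (adjusted p = 0.000506), 0.522 for Bsg (adjusted p = 0.0212), 0.521 for Aspscr1 (adjusted p = 0.0482) and -0.424 for Gipc1 (adjusted p = 0.0187). Bsg and Gipc1 passed in neither experiment alone. Among enzymes it was 1.52 for Ldhb (adjusted p = 1.74e-06), 0.805 for Hk1 (adjusted p = 0.022), 0.691 for Khk (adjusted p = 0.0491), -0.695 for Ldha (adjusted p = 0.00336) and -0.79 for Hk2 (adjusted p = 0.0115). The call for Bsg was lost in 3 of 18 refits, without Control replicate 2 or 2-HG(+) replicate 3 (adjusted p = 0.0516 each) and with median-of-ratios scaling (adjusted p = 0.0556). Likewise, the call was lost in 13 of 17 refits for Khk, 10 of 18 for Aspscr1, 5 of 18 for Hk1 and 1 of 18 for Gipc1 (quantile normalization, adjusted p = 0.0606). For Slc16a6 the difference was -4.11 with 0.1 RPM added.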

How the results depend on the processing

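Of 192 refits of the members' 12 log2 changes, 184 kept direction and side of the threshold, 4 lost a call and 4 turned sign. The sign turned for the difference of Slc16a1, not called, which ran from -0.099 to 0.13 as libraries were left out. The log2 change of Slc2a1 ran from 1.40 to 1.57 in 2MUT and from 0.73 to 0.92 with 2-HG as libraries were left out. Members lower in 2MUT went from 2 to 1 in the unmoderated test (Slc2a8, adjusted p = 0.075) and ranged from 1 to 2 with a library left out. Members whose signed difference was called below 0 went from 1 to 2 with no filter (Slc2a3, adjusted p = 0.0383, from 10 and 2 reads in Control and 2MUT) and ranged from 0 to 1 with a library left out. The unmoderated test called 1021 genes higher and 1223 lower in 2MUT, and 1098 higher and 1139 lower with 2-HG. On recovered reads edgeR called 1817 higher and 1947 lower in 2MUT, and 1794 and 1752 with 2-HG. For called genes of the 5 lists, 421 of 479 refits kept the call and 58 lost it.

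Same-numbered libraries did not deviate together (correlations 0.071, 0.029 and 0.032 in 2MUT, -0.457, -0.158 and 0.057 with 2-HG), and the main test did not pair them. With 3 libraries in a group, these correlations cannot settle whether the numbers pair the libraries. With the replicate block, 1911 genes were higher in 2MUT and 1217 with 2-HG, and members with a difference called below 0 went from 1 to 0 (Slc2a6, adjusted p = 0.0534). Levels worth 3 reads or fewer, 0.41 to 0.464 RPM in the 2MUT experiment and 0.163 to 0.201 RPM in the 2-HG experiment, were not detectable.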

Other observations

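One library stood apart for a gene next to transport. G6pc3, a ubiquitous glucose-6-phosphatase, was at 106, 116 and 10.3 RPM in the Control libraries and at 114, 129 and 122 RPM in 2MUT, so that Control replicate 3 lay far below the other 5 libraries of the experiment. This was noticed after its values were seen and was not tested.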
